A study of Mus musculus with 6 samples.

Results

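Icos, Icosl, Cd28, Ctla4, Cd80 and Cd86 encode 3 receptors of the CD28 family and 3 of their ligands of the B7 family. They were taken by name from a table of 18122 genes, and all 6 were present and passed the filter on low counts. The table holds messenger RNA of group 2 innate lymphoid cells (ILC2s), lymphocytes without rearranged antigen receptors that release type 2 cytokines. The cells were sorted from mouse lung and cultured, and 3 libraries came from each of 2 genotypes: wild type (WT, BALB/C BYJ) and a targeted Icos allele (ICOS KO, C.129S4-Icostm1Shr/J). The sources used here do not give age, sex, culture stimulus or treatment. The strain name marks the allele as 129S4 DNA on a BALB/c background, so DNA linked to Icos, where Cd28 and Ctla4 lie, may differ with the genotype. An effect of the allele and one of linked or other strain DNA cannot be told apart.

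The inducible co-stimulator ICOS binds ICOS ligand, the product of Icosl, and recruits phosphoinositide 3-kinase (PI3K) through a tyrosine motif in its tail. CD28 and CTLA-4 share the ligands CD80 and CD86, which they engage with opposite outcomes: CD28 promotes T cell activation, and CTLA-4 restrains it by competing for the ligands and removing them from the presenting cell. ILC2s are known to carry both ICOS and ICOS ligand, and their interaction is known to support survival and cytokine release by these cells.

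The tail sequences of the 3 receptors are shown because each carries a tyrosine motif of the form through which ICOS recruits PI3K. Genes of PI3K are counted further on. The lines give 30 bases of coding sequence, 5′ to 3′ on the plus strand of chromosome 1, from GENCODE M21 transcripts (GRCm38). Capitals mark the codons of the motif, a tyrosine followed by any pair of residues and a methionine.
Icos: aatagtgaaTACATGTTCATGgcggcagtc
Cd28: caaagtgacTACATGAACATGactccccgg
Ctla4: acaggggtcTATGTGAAAATGcccccaaca
These stretches lie at chr1:60995551-60995580, chr1:60769684-60769713 and chr1:60914637-60914666. Each is within exon 4, of 5 exons in the Icos transcript and of 4 in those of Cd28 and Ctla4. The counts are per gene and do not show how far a transcript of the targeted allele reaches into this exon.

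Icos (chromosome 1, 60977927 to 61000320), Ctla4 (60887000 to 60915832) and Cd28 (60716800 to 60773359) are neighbours on the plus strand within 283.5 kb. A gap of 62.1 kb separates Ctla4 from Icos, and one of 113.6 kb separates Cd28 from Ctla4. The ligand genes lie elsewhere. Icosl is on chromosome 10 (78069302 to 78083913), while Cd86 (36603869 to 36666081) and Cd80 (38455561 to 38496335) are on chromosome 16.

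The libraries held 13738062 to 18736474 estimated counts. Values are counts scaled to library size (CPM) and adjusted with TMM factors, on which 3 reads in a library equal 0.157 to 0.225 CPM. Sampling error of the reads is all that this floor covers, since PCR copies are not independent molecules. The series' design text names duplicates, but 3 libraries of each genotype were in the table and each was used. No label says that the libraries of a group are separate mice or cultures, so the tests see only library-to-library spread, part of which may be technical. Levels of 14 ILC2 markers differed widely, with Il5, Id2 and Klrg1 highest per length. The lineage factor Gata3 stood at 868 ± 51.0 CPM in WT and 753 ± 53.1 CPM in ICOS KO (SD, n = 3 each). Thy1, named after its values were seen, was the lowest per length, at 12.9 and 8.25 CPM. Of these 14, Il1rl1, Klrg1, Areg and Arg1 were called higher and Rora lower in edgeR. Over all genes tested, 3.29% were called. The Il1rl1 call held in 11 of 17 alternative fits and that of Rora in 14. The list summed to 11500 to 12700 CPM in WT and 12200 to 12900 CPM in ICOS KO, with Il5 alone at 6460 and 6049 CPM. On the first principal component, with 40.4% of the variance, ICOS KO replicate 2 lay farthest from WT, and Cd28 and Cd86, for which it differed from the other ICOS KO libraries, are given with and without it.

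Of the 6 genes, only Icos passed an adjusted p of 0.05 in edgeR, and it was lower in ICOS KO. Over all 13691 genes tested, 3.29% passed, 2.01% as lower and 1.29% as higher. The mean was lower in ICOS KO for 5 of 6 members and higher for Ctla4. Of all 13691 genes tested, 6904 had a negative log2 fold change. Icos, Ctla4 and Cd80 were the 3 of 6 whose WT and ICOS KO libraries did not overlap, against 24.4% of all genes tested.

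The WT libraries held 434, 462 and 502 CPM of Icos, and the ICOS KO libraries 140, 170 and 161. Every ICOS KO library lay far below every WT library, and the libraries of a group lay close together. The fitted level in ICOS KO was 33.7% of that in WT (95% interval 28.8 to 39.5%), a log2 fold change of -1.57 ± 0.10 (SE, n = 3 each; edgeR adjusted p = 1.27e-05). Icos RNA thus remained well above the floor in ICOS KO, at 2166 to 2264 counts per library. Its log2 fold change ranged from -1.63 to -1.49 over 17 alternative fits, all of which called it.

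**Figure D1:**
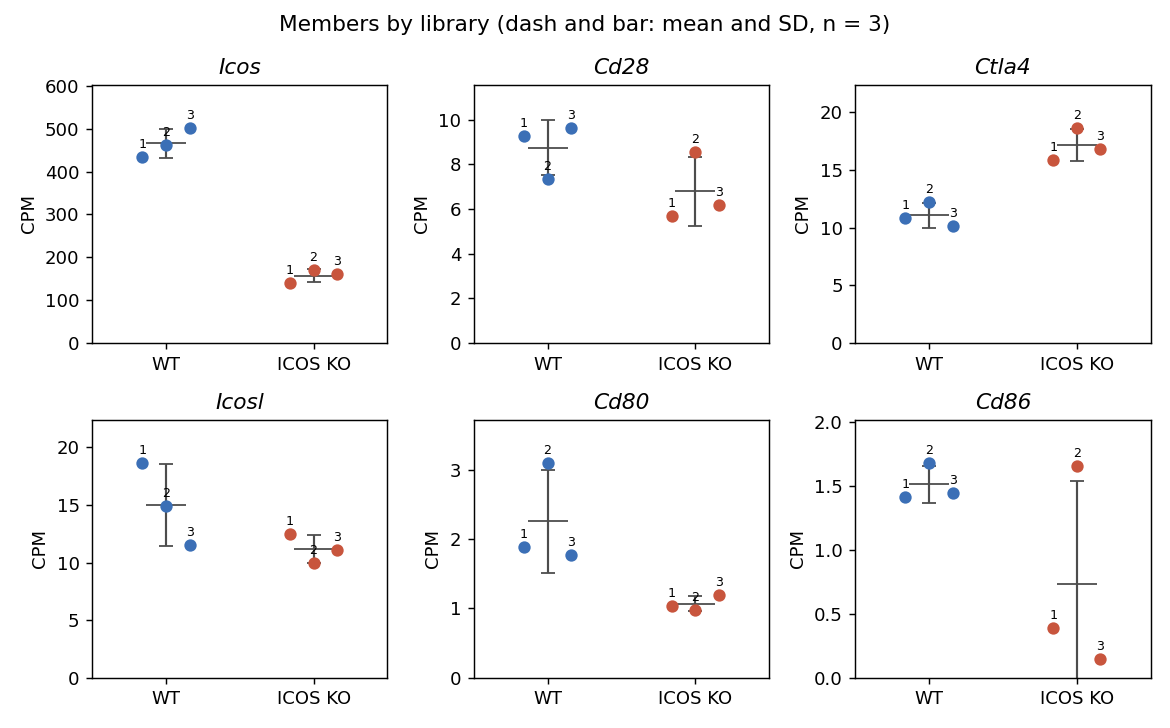
CPM of the 6 genes (y axis, from 0, own scale per panel) in 3 WT and 3 ICOS KO libraries, with replicate numbers beside the points; the dash is the mean and the bar the SD, which for Cd86 in ICOS KO reaches below the axis. Icos, Ctla4 and Cd80 show no overlap between genotypes, and Cd86 in ICOS KO replicate 2 lies at 1.65 CPM among the WT values.

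The first intron of Icos (60978017 to 60993701) holds the predicted gene model Gm37039 (60989479 to 60991963), a feature singled out after its values were seen. It had 39, 24 and 50 counts in WT and 26, 39 and 24 in ICOS KO. The ranges overlapped, and the log2 fold change was -0.04 ± 0.47 (SE; 95% interval -1.05 to 0.98; edgeR adjusted p = 0.973). Relative to Icos, its counts were 0.466% in WT and 1.34% in ICOS KO. A lower level of the intronic model was not detectable with these few reads, whereas the counts given to Icos fell, and the difference between both changes was not tested.

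Among the neighbours, Cd28, the constitutive co-stimulatory receptor of T cells, was scarce in both genotypes. Its CPM were 9.28, 7.36 and 9.64 for WT against 5.68, 8.57 and 6.16 for ICOS KO. ICOS KO replicate 2 lay within the WT range, and the other ICOS KO libraries lay below it. The log2 fold change was -0.36 ± 0.25 (SE, n = 3 each; edgeR adjusted p = 0.423), with a 95% interval of -0.90 to 0.17 that includes no change. Without ICOS KO replicate 2 it was -0.56 (adjusted p = 0.355).

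Ctla4, which encodes the inhibitory partner of CD28, had CPM of 10.8, 12.3 and 10.1 for WT against 15.9, 18.6 and 16.8 for ICOS KO. All ICOS KO libraries lay above all WT libraries. The log2 fold change of 0.63 ± 0.17 (SE, n = 3 each; 95% interval 0.26 to 1.0) did not pass over all genes in edgeR (adjusted p = 0.0748). DESeq2 alone among the 17 alternatives called it (0.64, adjusted p = 0.0274), and adjusted p was up to 0.252 in the others. Its sign was positive in all of them.

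**Figure D2:**
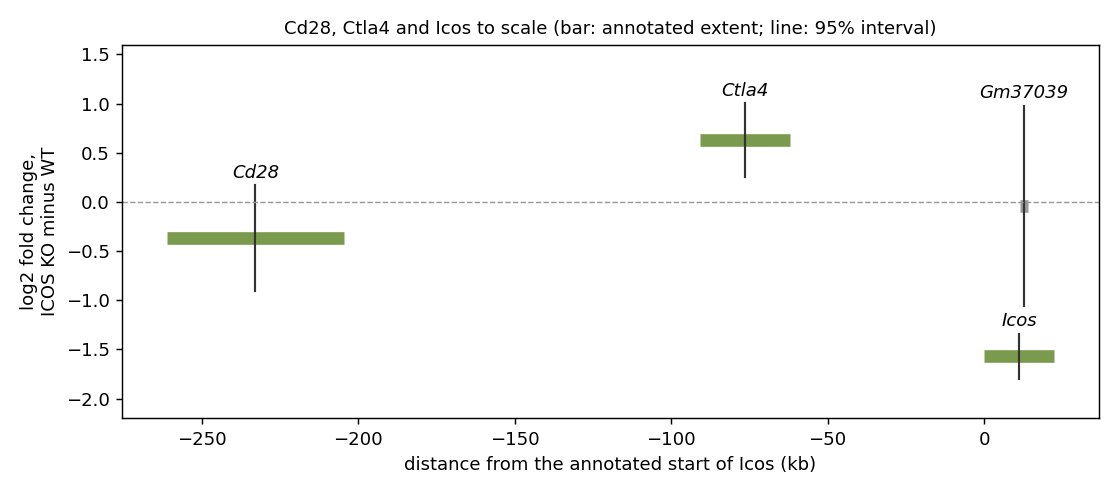
Log2 fold change of the neighbouring genes (y axis, ICOS KO minus WT, with 95% intervals as vertical lines) against distance from the annotated start of Icos in kb (x axis, to scale). Icos lies at -1.57, Ctla4 at 0.63 and Cd28 at -0.36; Gm37039, in grey, lies at -0.04 within the extent of Icos.

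Ratios within a library need no scaling factor. The ratio of Ctla4 to Cd28 counts was 1.16, 1.66 and 1.05 in WT and 2.79, 2.17 and 2.72 in ICOS KO. Each ICOS KO library thus had a higher ratio than each WT library. The mean log2 ratio was 0.34 ± 0.35 in WT and 1.35 ± 0.20 in ICOS KO (SD, n = 3 each), a difference of 1.01. An exact two-sided permutation test gave p = 0.1, the smallest value that 3 against 3 libraries allow.

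The log2 ratio of Icos to Cd28 was 5.74 ± 0.21 in WT and 4.54 ± 0.21 in ICOS KO (SD, n = 3 each). The groups did not overlap, and the difference of -1.20 had an exact two-sided permutation p of 0.1, again the smallest possible. Icos therefore fell relative to its scarce neighbour as well as relative to the library. Both use the same Icos counts, so the ratio is no separate result. Icos remained the most abundant of the 3 neighbours in every library.

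**Figure D3:**
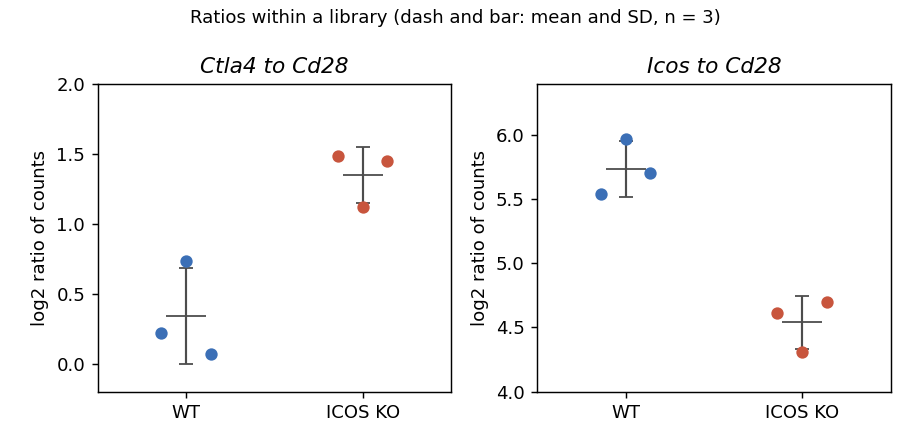
Log2 ratio of counts (y axis, ranges chosen per panel and not starting at 0) of Ctla4 to Cd28 and of Icos to Cd28 in each library; the dash is the mean and the bar the SD. The ICOS KO libraries lie between 1.12 and 1.48 for Ctla4 to Cd28, above the WT libraries at 0.07 to 0.73.

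The ligand of ICOS was transcribed by the same libraries at a low level. Icosl CPM were 18.7, 14.9 and 11.5 for WT against 12.5, 10.0 and 11.1 for ICOS KO. The range within WT was wider than the gap between the group means, and both ranges overlapped. The log2 fold change was -0.43 ± 0.21 (SE, n = 3 each; edgeR adjusted p = 0.279; 95% interval -0.89 to 0.03). It was -0.24 without WT replicate 1 and -0.59 without WT replicate 3, and no alternative called it.

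Cd80 and Cd86, the shared ligands of CD28 and CTLA-4 on antigen-presenting cells, had few reads. Cd80 had 36, 59 and 27 counts in WT and 16, 13 and 16 in ICOS KO. These equal 1.89, 3.10 and 1.77 CPM against 1.03, 0.977 and 1.19 CPM, so every ICOS KO library lay below every WT library. The log2 fold change was -1.08 ± 0.45 (SE; 95% interval -2.07 to -0.09; edgeR adjusted p = 0.219), and it was -0.78 without WT replicate 2. No alternative called Cd80.

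Cd86 had 27, 32 and 22 counts in WT and 6, 22 and 2 in ICOS KO. Replicates 1 and 3 of ICOS KO were far below WT, and replicate 2 stood at the WT level, at 1.65 CPM against 1.42, 1.68 and 1.44 CPM. The log2 fold change was -1.06 ± 0.70 (SE; 95% interval -2.60 to 0.48; edgeR adjusted p = 0.418). That value rests on single libraries, being -2.44 (adjusted p = 0.131) without ICOS KO replicate 2, -0.75 without ICOS KO replicate 1 and -0.59 without ICOS KO replicate 3. No alternative called Cd86.

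In RNA of whole cultures, fewer cells of a type and less RNA per cell cannot be told apart, which bears on the ligands in particular. Macrophage and dendritic cell markers numbered 13, of which 8 were tested and 1 passed the test, against 3.29% of all genes tested. Log2 fold changes were negative for 7 of the 8, against 6904 of 13691 over all genes. Csf1r, the receptor of the macrophage growth factor CSF-1, had 11.3 ± 2.19 CPM in WT and fell to 3.86 ± 1.26 CPM (SD, n = 3 each; adjusted p = 0.013 in edgeR). That call needed WT replicate 1 and ICOS KO replicate 3, and the adjusted p reached 0.0824 when one of them was left out. The 13 genes summed to 151 to 208 CPM in WT and 109 to 149 CPM in ICOS KO. Lyz2 (64.5 and 44.0 CPM), Cd68 (39.9 and 27.9 CPM) and Xcr1 (35.1 and 38.2 CPM) were the highest of them per length. They were not called by edgeR, but with the replicate block Lyz2 (adjusted p = 0.0161) and Cd68 (0.0389) were called lower, also with the length and GC correction added (0.00605 and 0.0135). None was at 0 in all libraries of a group. Their part in the Cd80 and Cd86 values was not tested.

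Of 5 B cell markers, Cd79b, a subunit of the B cell receptor, was called higher, against 1.29% of all genes tested. It had 19.1 ± 1.76 CPM in WT and 31.9 ± 7.29 CPM in ICOS KO (edgeR adjusted p = 0.0466), a call kept in 8 of 17 alternatives. Cd79a, the other subunit, had 3.52 and 3.74 CPM (0.897). The list summed to 909 to 1360 CPM in WT and 1510 to 1530 CPM in ICOS KO, nearly all of it Ighm. That gene had 1120 ± 229 and 1482 ± 9.86 CPM (edgeR adjusted p = 0.109), was not called, and was called in 5 of 17 alternatives. Ms4a1, which encodes the B cell surface protein CD20, had 1.13 CPM in WT and 0.971 CPM in ICOS KO. Mast cell and basophil markers were called lower in 6 of 7 tested genes, against 2.01% of all genes tested. Sums over that list were 110 to 125 CPM in WT and 31.1 to 36.6 CPM in ICOS KO. The proteases Cpa3, Mcpt8, Tpsb2 and Cma1 were called in all 17 alternatives, the IgE receptor chain Fcer1a in 12 of 16 and the transcription factor Gata2 in 14 of 16. Kit, the stem cell factor receptor, had 20.3 ± 1.40 CPM in WT and 20.2 ± 2.86 CPM in ICOS KO (edgeR adjusted p = 0.998). Their part in the ligand values was not tested either.

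T cell markers bear on Cd28 and Ctla4. There were 12, of which 8 were tested. The receptor constant genes Trbc1 and Trbc2 were called higher and Cd3e lower, where 3.29% of all genes tested were called. The calls of Trbc2 and Cd3e were each lost in 4 of 17 alternatives. The list summed to 268 to 324 CPM in WT and to 391 to 502 CPM in ICOS KO, most of it Trbc1 and Trbc2. Cd3e had 8.87 ± 1.42 CPM in WT and 2.30 ± 1.34 CPM in ICOS KO (SD, n = 3 each; adjusted p = 0.0281 in edgeR). Signalling chains of the receptor complex were higher in mean without passing: Cd3g, ranked 3 in the list per length, had 48.2 and 63.3 CPM (edgeR adjusted p = 0.214) and Cd247 had 16.6 and 25.9 CPM (0.0828). Cd3d had 1.16 and 0.977 CPM and Cd5 0.342 and 0.0215 CPM. Fewer reads fell on the co-receptors and the alpha chain. Cd4 had 20 counts over the WT libraries and 1 over the ICOS KO libraries, and Trac 51 and 25. Cd8a and Cd8b1 had 22 and 20 in WT and none in ICOS KO. By WT library these were 0, 9 and 13 for Cd8a and 3, 17 and 0 for Cd8b1, so each also lacked reads in a WT library. Foxp3, the factor of regulatory T cells, which are rich in CTLA-4, stood at 4.99 CPM in WT and 3.48 CPM in ICOS KO (edgeR adjusted p = 0.323). The part of T cells in the Ctla4 and Cd28 values was not tested.

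Levels can be set beside each other once divided by gene length. On that scale, CPM per kb of annotated exon, Icos led at 136 ± 9.88 in WT, followed by Ctla4 at 4.74 ± 0.472, Icosl at 3.25 ± 0.772, Cd28 at 1.43 ± 0.20, Cd80 at 0.609 ± 0.199 and Cd86 at 0.413 ± 0.0402 (SD, n = 3). In ICOS KO the order was the same, at 45.8 ± 4.54, 7.35 ± 0.60, 2.42 ± 0.268, 1.11 ± 0.253, 0.288 ± 0.0294 and 0.199 ± 0.221. Neighbours in this order did not overlap in either genotype, except Cd80 and Cd86 in ICOS KO. With the longest transcript as the length, Ctla4 and Icosl also overlapped in WT, as did Cd80 and Cd86.

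Among 13388 tested genes with a known length, Icos ranked 440 in WT and 1517 in ICOS KO by level per length. The level of Icos was 28.7 times that of Ctla4 in WT and 6.23 times in ICOS KO. Of the summed level per length of the 3 neighbouring receptors, Icos made up 95.6 ± 0.418% in WT and 84.4 ± 0.604% in ICOS KO. The share of Ctla4 was 3.35 ± 0.454% in WT and 13.6 ± 0.485% in ICOS KO (SD, n = 3 each). Both a lower Icos and a higher Ctla4 enter that share, so it is no separate result.

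**Figure D4:**
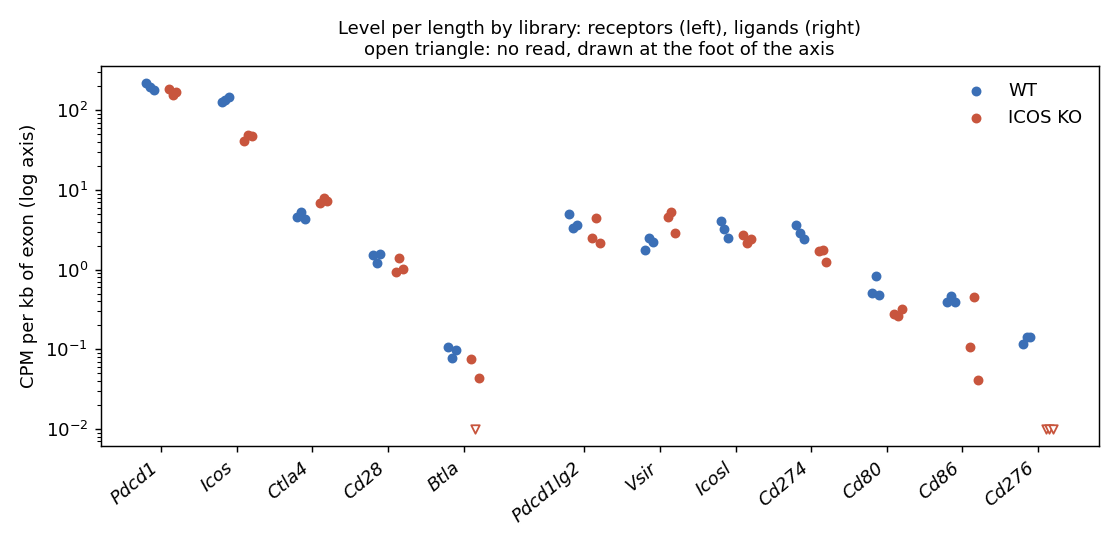
CPM per kb of annotated exon (y axis, log scale) in each library for CD28 family receptors and B7 family ligands; points are libraries, and open triangles mark libraries with no read. Pdcd1 and Icos stand far above the others, and Icos is the receptor whose genotypes are set farthest apart.

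Other genes of both families give the setting. Of 5 CD28 family receptors 4 were tested. Icos was called lower and the others were not called, where 3.29% of all genes tested were called. The median log2 fold change of the 4 was -0.30, against 0.00 over all genes. Pdcd1, which encodes the inhibitory receptor PD-1, was the highest of the family per length, at 200 ± 19.2 CPM per kb in WT and 169 ± 14.3 in ICOS KO. In CPM it stood at 424, 382 and 351 in WT and 354, 299 and 326 in ICOS KO (edgeR adjusted p = 0.227). In ICOS KO, Pdcd1 exceeded Icos in every library on either scale, while in WT Icos was the higher in CPM and Pdcd1 the higher per kb.

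B7 family ligands numbered 7, of which 6 were tested and 1 passed the test, against 3.29% of all genes tested. Log2 fold changes were negative for 5 of the 6, against 6904 of 13691 over all genes. The median of the 6 was -0.68. The gene that passed was Vsir, which encodes VISTA, an inhibitory member of the family, and it rose: 8.86, 12.5 and 11.2 CPM in WT and 22.8, 26.3 and 14.3 CPM in ICOS KO (log2 fold change 0.96 ± 0.23, edgeR adjusted p = 0.0473). All ICOS KO libraries exceeded all WT libraries, but 9 of 17 alternatives lost the call, with an adjusted p of up to 0.206 (without WT replicate 1). Pdcd1lg2, which encodes the PD-1 ligand PD-L2, stood at 7.80 ± 1.85 and 5.98 ± 2.46 CPM (edgeR adjusted p = 0.515). Cd274, for PD-L1, named after its values were seen, had CPM of 13.2, 10.4 and 8.72 for WT against 6.14, 6.31 and 4.45 for ICOS KO, without overlap (-0.93 ± 0.25; edgeR adjusted p = 0.0694). DESeq2 (adjusted p = 0.0174), the replicate block (0.0466) and voom with quality weights (0.0319) called Cd274 lower. Cd276, also named after its values were seen, was too low for testing and had 26 counts over the WT libraries and 0 over the ICOS KO libraries. Its pooled WT level was 6.87 times a floor of 3 reads over the ICOS KO group. That figure takes the WT reads as exact and leaves out spread between libraries, and the difference was not tested.

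**Figure D5:**
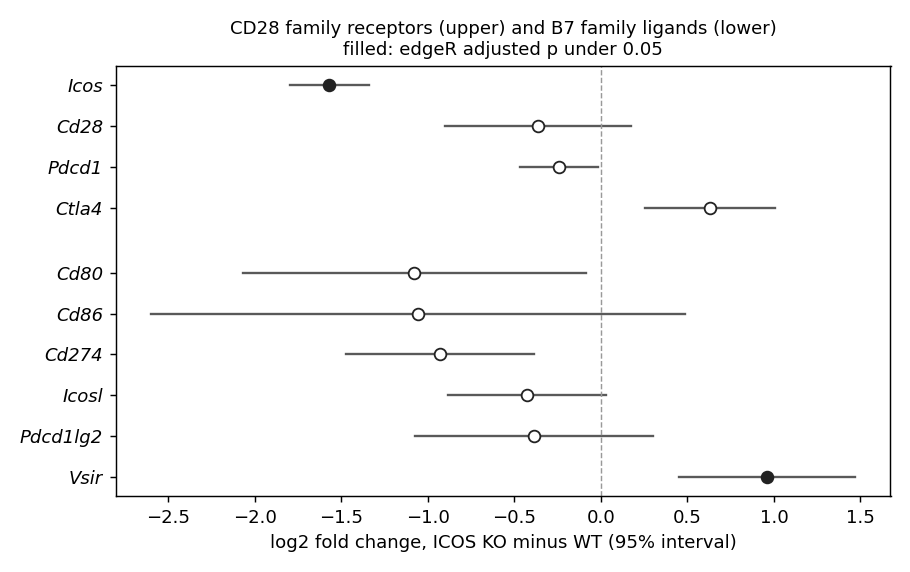
Log2 fold change (x axis, ICOS KO minus WT, with 95% intervals) of the tested receptors and ligands (y axis); filled points passed an adjusted p of 0.05 in edgeR. Icos at -1.57 and Vsir at 0.96 are filled, and the other ligands lie to the left of 0.

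Of 38 tested genes of the pathway behind ICOS and CD28, 1 was called, against 3.29% of all genes tested. Prkcq, which encodes protein kinase C theta, the kinase that links CD28 to NF-kB in T cells, had CPM of 32.7, 35.4 and 33.4 for WT against 65.7, 60.9 and 63.7 for ICOS KO. The groups were far apart relative to their spread (log2 fold change 0.91 ± 0.11, edgeR adjusted p = 0.00107), and all 17 alternatives called it. The other 37 were not called. Negative values were found for 28 of the 38 (median -0.12), against 6904 of 13691 over all genes (median 0.00). The share of higher genes among all calls moved with the processing, as given further on. The most abundant per length were Grb2, an adaptor of CD28 (304 ± 4.83 and 332 ± 12.9 CPM; edgeR adjusted p = 0.424), Ppp2r1a, a subunit of phosphatase PP2A (298 ± 18.4 and 260 ± 16.4 CPM; 0.262) and Vav1, an exchange factor (232 ± 21.1 and 214 ± 38.4 CPM; 0.648). PI3K itself was present, with the catalytic subunit gene Pik3cd at 297 CPM in WT and 333 CPM in ICOS KO (edgeR adjusted p = 0.549). The regulatory subunit gene Pik3r1 had 50.8 and 50.5 CPM (0.973). Pik3cd was called higher with the replicate block and the length and GC correction together. Stat5b was called lower with the replicate block (adjusted p = 0.0403), without ICOS KO replicate 1 (0.0321) and by voom with quality weights (0.039). Pik3cd, Pik3r1 and Stat5b were named after their values were seen.

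None of 8 tested genes that control these receptors and ligands was called by edgeR, against 3.29% of all genes tested. An unadjusted edgeR p under 0.05 was found for 2 of the 8, and for 2718 of 13691 over all genes. DESeq2 called 1 (Cd83), voom with quality weights called 2 (Adam17, adjusted p = 0.0399, and Cd83, 0.0432), and edgeR without ICOS KO replicate 1 called Adam17 lower (adjusted p = 0.022). The most abundant per length were Ap2m1, a subunit of the adaptor that takes CTLA-4 into the cell (749 ± 41.9 and 728 ± 65.3 CPM; edgeR adjusted p = 0.838), and the membrane proteases Adam17 (105 ± 12.9 and 78.1 ± 18.2 CPM; 0.167) and Adam10 (59.8 ± 3.11 and 52.8 ± 7.97 CPM; 0.462), which can shed ICOS ligand. Rc3h1, which encodes Roquin-1, a repressor of Icos mRNA, stood at 20.7 and 18.1 CPM (0.489). Cd83, whose product stabilises CD86 at the surface, had CPM of 4.67, 5.15 and 2.88 for WT against 1.03, 0.301 and 1.86 for ICOS KO (log2 fold change -1.99 ± 0.54, edgeR adjusted p = 0.0728; DESeq2 adjusted p = 0.00765). Both Rc3h1 and Cd83 were named after their values were seen.

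The genes whose log2 CPM over the 6 libraries was most like that of Icos, out of 11323 compared, were Klf7 (Pearson r = 0.9983), Csf2 (0.9952), Psmb10 (0.9952), Tuba8 (0.9952) and Pebp1 (0.9943). All 5 were lower in ICOS KO, and such values mainly follow the gap between genotypes that these genes share with Icos. Klf7, a Krüppel-like transcription factor on the same chromosome, had 53.7 ± 2.25 CPM in WT and fell to 35.2 ± 1.80 CPM (SD, n = 3 each, adjusted p = 0.0144 in edgeR). Whether strain DNA linked to Icos reaches Klf7 was not tested. For Ctla4 they were Tarbp2 (0.9962), Arl5a (0.9937), Lman1 (0.9915), Gstt2 (0.9914) and Impa2 (0.9909). Lman1, a cargo receptor of the secretory pathway, rose from 227 ± 15.6 to 323 ± 13.4 CPM (edgeR adjusted p = 0.0114). Arl5a, a small GTPase, rose from 154 ± 10.0 to 213 ± 7.94 CPM (edgeR adjusted p = 0.0187). The other 3, like Ctla4, were not called.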

How the data were processed

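The values that the authors deposited are estimated counts, 39.4% of them not whole, which were rounded here. The submitters' processing notes name Partek 10.0, STAR 2.7.8, DESeq2 and mm10; annotation, counter and strandedness are not given in sources used here. Per the labels' protocols, cDNA was made from 10 pg of RNA with a low-input kit, and no molecular identifiers are mentioned.

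Genes were kept with filterByExpr (13691) and compared in edgeR 4.0.16 (R 4.3.3) by its quasi-likelihood test with TMM factors, ICOS KO against WT, and Benjamini-Hochberg adjustment over all genes. SE values follow from the F statistic, and intervals are 95%. Ratios were tested by exact permutation over libraries, after adding 0.5 to each count. Gene lengths came from GENCODE M21 (GRCm38, the assembly that mm10 names).

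Members and lists were chosen with earlier results of these data known. Named genes were the members, called list genes, the 3 highest per length in each list, and the 5 genes most like Icos or Ctla4; Cd4, Cd5, Cd3d, Cd247, Kit, Cd8a, Cd8b1, Trac, Foxp3, Ms4a1, Gata3, Marchf1 and the others so described were chosen after their values were seen. Alternatives were other scalings, filters and tools (DESeq2 1.42.0, limma 3.58.1), a replicate block, a length and GC correction, and leaving out each library. The edgeR fit was checked on simulated counts.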

Additional observations from a re-analysis of the deposited data

How the results depend on the processing

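Icos kept its call, and no member changed sign, under the 17 alternatives, 1 of which (voom with quality weights) was chosen after seeing the data; Cd80 and Cd86 had no value with at least 5 CPM in 3 libraries. Ctla4 was called by DESeq2 (0.64). Same-numbered libraries had correlations of 0.087, 0.078 and 0.064 in their deviations from the group means, and each library correlated best with its own number. The main fit took no pairing because the labels name none. Whether same-numbered libraries share a batch was not tested. The replicate block raised the genes called over all genes from 451 to 784 and left every member's call as it was. That count was 929 with DESeq2, 906 with weighted voom, 1019 with the block and the length and GC correction, and 193 to 1090 with 1 library left out (193, 194 and 216 without WT replicate 1, WT replicate 2 and ICOS KO replicate 3, and 1090 without ICOS KO replicate 1). The share of higher genes among calls was 39%, against 28.2% when scaled by totals only, 57.4% after removing a length and GC trend, and 67.7% with the block as well. Receptors and ligands called were 2, 1 with library totals, voom or no filter, 4 with DESeq2, 3 with the block and 1 to 2 with 1 library left out. Signalling genes called were 1, 2 with the block alone or with the length and GC correction, 2 with weighted voom, and 1 to 2 with 1 library left out. Control genes called were 0, 1 with DESeq2, 2 with weighted voom and 0 to 1 with 1 library left out. The cause was not tested in any of these. The difference in the Ctla4 to Cd28 log2 ratio ranged from 0.87 to 1.2, and that for Icos to Cd28 from -1.29 to -1.08. Cd80 and Cd86 had at most 59 counts in a library.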

Other observations

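The counts of Icos were not whole in all 3 WT libraries (8283.13, 8789.93 and 7653.06) and whole in all 3 ICOS KO libraries (2166, 2264 and 2174), while those of Cd28, Ctla4, Icosl, Cd80 and Cd86 were whole throughout. A count that is not whole can arise where reads are divided between features. Which features shared reads with Icos in WT is not shown by the table, and Gm37039 had whole counts in every library.

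ICOS KO replicate 2 stood apart from the other ICOS KO libraries for several co-stimulation genes, picked after their values were seen. It had 8.57 CPM of Cd28 against 5.68 and 6.16 in replicates 1 and 3, 1.65 CPM of Cd86 against 0.388 and 0.148, and 8.79 CPM of Pdcd1lg2 against 4.91 and 4.23. Marchf1, whose product removes CD86 from the cell surface, was at 2.56 CPM in that library against 0 and 0.297. Replicate 2 was not set apart in this way for Icosl (10.0 against 12.5 and 11.1 CPM), Cd80 (0.977 against 1.03 and 1.19) or Cd274 (6.31 against 6.14 and 4.45). How many of all genes set it apart was not counted. The same library had the largest share of mitochondrial reads, 0.616% against 0.329% and 0.492% in the other ICOS KO libraries and 0.263 to 0.422% in WT. The part of that share in these values was not tested.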
